A study of Mus musculus with 3 samples.

Results

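Of 14073 nuclei kept from aortic roots of newborn mice, 185 carried a pericyte marker signature and are called members here. A nucleus was kept with at least 1000 unique molecular identifiers (UMIs, each marking 1 captured RNA molecule) and at most 5% of them from mitochondrial genes. A member had RNA of at least 3 of the 6 pericyte markers Pdgfrb, Rgs5, Abcc9, Kcnj8, Vtn and Notch3, with at least 2 UMIs from Abcc9, Kcnj8 and Vtn together. It had at most 1 UMI of Myh11, the smooth muscle myosin heavy chain, and at most 1 UMI from the endothelial genes Pecam1, Cdh5 and Ptprb. The cardiomyocyte genes Ryr2, Ttn, Myh6 and Tnnt2 had to make up less than 0.5% of its UMIs. Members were thus chosen by the measured UMIs of these genes, so the rule's own genes are described and not tested.

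All samples belonged to 1 group of 3 pools, each made from the aortic valve structures of 22 to 24 roots taken at postnatal day 1. Each pool mixes many pups, and the labels give neither their sex nor any treatment. The mice were B6.Cg-Scx<tm1.1(EGFP)Skom, stock RBRC11098, with an EGFP allele of the scleraxis gene Scx carried by the whole group, and the labels do not give its zygosity. Nuclear RNA was read by the gene expression arm of the 10x Genomics Multiome assay from flash-frozen tissue. Members numbered 104 in pool 1, 48 in pool 2 and 33 in pool 3, which is 1.47%, 1.48% and 0.880% of the kept nuclei of each pool, with Wilson 95% intervals of 1.22 to 1.78%, 1.11 to 1.95% and 0.627 to 1.23%. They carried 606677, 270353 and 116577 UMIs. The comparison classes were 2912 smooth muscle nuclei, 1784 fibroblast-gated nuclei and the rest, 9825 kept nuclei that were neither members nor among the 4063 others meeting the smooth muscle rule. The 2912 are those of the 4063 within the members' limits on other cell types, and the rest includes the fibroblast-gated nuclei, so these comparisons share nuclei.

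Pericytes are mural cells that sit on capillaries and small venules inside the endothelial basement membrane. Endothelial PDGF-B recruits them through the receptor PDGFRβ, and contact with the endothelium acts through Notch3 and the angiopoietin system. In heart and brain they are known for the ATP-sensitive potassium channel made of Kir6.1, encoded by Kcnj8, and SUR2, encoded by Abcc9, which sets membrane potential. They share much of their gene expression with smooth muscle and with fibroblasts, so single markers do not define them.

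The upstream bases of 4 genes are shown because these genes carry the results: the paired channel genes of the rule, which lie in the same direction on the same chromosome, and 2 genes outside it that mark the nuclei described next. Each is the 250 bases before the annotated start, from RefSeq on GRCm38.p6, on the gene's own strand, and the submitters' processing notes name another build, GRCm39. Abcc9 lies at chr6:142702275-142702524 and Kcnj8 at chr6:142571615-142571864, both on the minus strand, Steap4 at chr5:7960222-7960471 and Nostrin at chr2:69135550-69135799, both on the plus strand. Capitals mark TGGGAA or its reverse complement TTCCCA, the core that RBPJ, the DNA-binding partner of Notch receptors, is known to bind.
Abcc9: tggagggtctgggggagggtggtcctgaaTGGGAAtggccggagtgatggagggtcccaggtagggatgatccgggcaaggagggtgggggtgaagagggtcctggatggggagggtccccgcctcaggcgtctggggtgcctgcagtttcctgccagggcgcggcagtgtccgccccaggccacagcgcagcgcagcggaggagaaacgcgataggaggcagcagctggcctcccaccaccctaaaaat
Kcnj8: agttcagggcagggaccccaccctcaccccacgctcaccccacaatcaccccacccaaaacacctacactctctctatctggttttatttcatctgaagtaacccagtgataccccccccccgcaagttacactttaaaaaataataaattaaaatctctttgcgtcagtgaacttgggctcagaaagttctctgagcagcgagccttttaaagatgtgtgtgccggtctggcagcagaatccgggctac
Steap4: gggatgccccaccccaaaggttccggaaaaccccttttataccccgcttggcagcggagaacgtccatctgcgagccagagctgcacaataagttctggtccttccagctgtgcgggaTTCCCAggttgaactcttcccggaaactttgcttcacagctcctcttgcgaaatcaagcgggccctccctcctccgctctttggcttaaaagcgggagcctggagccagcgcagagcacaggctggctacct
Nostrin: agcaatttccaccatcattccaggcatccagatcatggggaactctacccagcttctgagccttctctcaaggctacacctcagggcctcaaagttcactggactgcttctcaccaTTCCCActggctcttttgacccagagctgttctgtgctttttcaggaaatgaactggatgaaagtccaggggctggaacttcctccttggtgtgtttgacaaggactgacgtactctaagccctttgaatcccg
Abcc9, Steap4 and Nostrin held 1 match each and Kcnj8 held 0. Of the 24 rule markers and listed pericyte markers outside the rule, 17 had a promoter entry and 8 of these held a match, or 8 of 23 promoters (34.8%), beside 7094 of 32851 promoters overall (21.6%). A match is only a run of letters and was not tied to any measurement here.

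The members did not fall in 1 cluster, and the data went against a single pericyte label for them. When all kept nuclei were clustered without the rule's genes, which could still be ranked afterwards, the largest single group of members, 42 of 185 (22.7%), fell in a cluster of 130 nuclei with Zfp804b, Mdga2, Nostrin, Olfr78, Kcnj8, Steap4 and Colec11 among its leading genes, called the Steap4/Nostrin cluster here. It held 14 of 104 members in pool 1 (13.5%), 16 of 48 in pool 2 (33.3%) and 12 of 33 in pool 3 (36.4%). The other 143 members were spread over 11 clusters made mostly of other nuclei. A cluster led by Clca3a2 and Pi15 took 39 of them, one led by Abca8a and Ebf2 took 30, one led by Rmst and Pcdh15 took 26 and one led by Ptprz1 and Mylk4 took 19. A cluster led by the cell cycle genes Neil3 and Diaph3 took 11, and the 8 in a cluster led by the cardiomyocyte genes Mb and Fabp3 all came from pool 1.

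**Figure D1:**
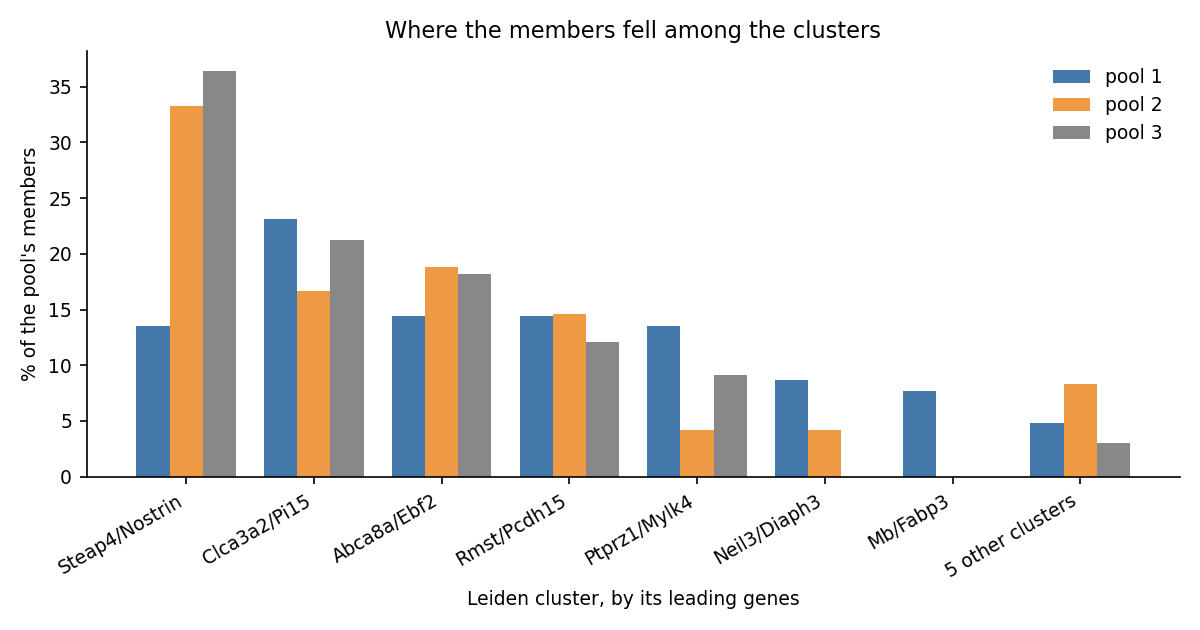
Share of each pool's members (%) in each Leiden cluster, named on the horizontal axis by 2 of its leading genes, with 1 bar per pool. The Steap4/Nostrin cluster holds 13.5%, 33.3% and 36.4% of the members of pools 1, 2 and 3, and the remaining members are divided among clusters of other leading genes.

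The cluster's extent depended on the resolution, set at 1. At 0.5 the cluster richest in members held 424 nuclei, 109 of the 130 among them, and 45 members. At 2 it held 131 nuclei, 128 of the 130 among them, and 42 members. Members elsewhere had a mean of 6.40 smooth muscle nuclei and 4.97 fibroblast-gated nuclei among their 15 nearest neighbours. Of them, 59 met the smooth muscle rule too and 85 had RNA of at least 3 fibroblast genes, against 7 and 11 of the 42. These groups were found in the same counts, so the differences between them are given as values in each pool, with no test.

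Members in the Steap4/Nostrin cluster and members elsewhere, called the 2 kinds of members here, differed in the amount of marker RNA per nucleus. Members elsewhere are a mixture from several clusters, so their values are averages over these. Of the 32 members with 10 or more UMIs from Abcc9, Kcnj8 and Vtn, 28 were in the Steap4/Nostrin cluster, and of the 69 members just inside the rule with 2 UMIs, 2 were. Just outside the rule, 158 nuclei met every other criterion with 1 UMI, and 4 of them were in the cluster. Of 106 nuclei with 2 markers that met every other criterion 0 were in the cluster, of 92 members with 3 markers 2 were, and of 35 members with 5 markers 28 were. Kcnj8 RNA was found in 71 members, 35 of them among the 42. The median depth was 4194.5 UMIs in the 42 nuclei and 4914 in the 143. When every kept nucleus was thinned at random to 1000 UMIs, 48 nuclei passed the rule, and 29 of these were in the cluster.

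**Figure D2:**
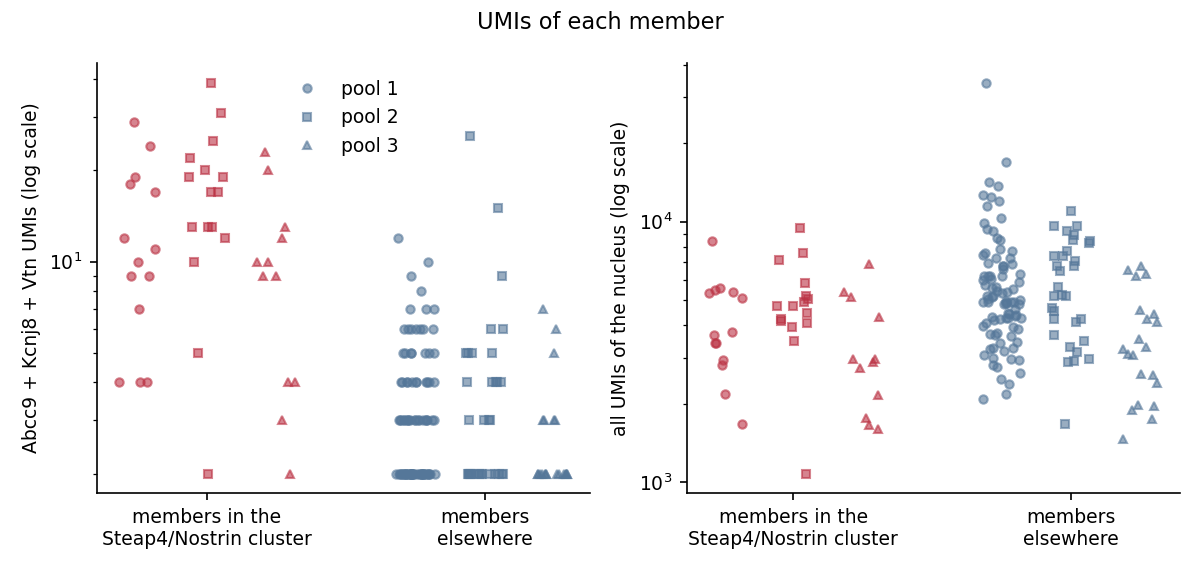
UMIs of Abcc9, Kcnj8 and Vtn together (left) and of all genes (right) for each of the 185 members on log scales, with pools as marker shapes. Members in the Steap4/Nostrin cluster reach high on the left, where 28 of the 32 members with 10 or more UMIs are found, and overlap the other members in total UMIs on the right.

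The rule's genes, described with no test, were higher in the 42 nuclei. Levels are given as CPM, the UMIs of a gene per 1000000 UMIs summed over a group in a pool. Abcc9 stood at 2381, 2848 and 2543 CPM in pools 1, 2 and 3 in the cluster's members, at 517, 652 and 697 in members elsewhere, and at 128, 101 and 109 in smooth muscle nuclei. Kcnj8 stood at 591, 575 and 370 CPM against 60.3, 94.6 and 65.7, with a mean of 5.07 ± 1.39 in smooth muscle nuclei (SD, n = 3 pools). Both channel genes were above smooth muscle in both kinds of members, and the rule had selected for them. Pdgfrb, the PDGF-B receptor, stood at 1520, 1436 and 1062 CPM against 281, 342 and 460. Notch3 stood at 1351, 1024 and 1062 against 356, 252 and 499, and its mean in smooth muscle nuclei was 363 ± 28.5. Rgs5, which damps G-protein signals, was at 844, 1486 and 691 against 248, 284 and 158. Vtn, a pericyte-secreted matrix protein, gave 5 UMIs in all members, every one of them among the 42 nuclei.

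Free RNA from broken cells gives some UMIs in any nucleus, so the shares of nuclei with RNA were set beside a class that should lack it. The rule had chosen members by UMIs of its markers, so higher marker shares in members were built in. The part of free RNA in the members' UMIs was not tested. After thinning to 1000 UMIs, Kcnj8 was found in 46.8% and Pdgfrb in 72.7% of the 42 nuclei (means of 3 pools), and in 9.12% and 43.2% of the other members. In cardiomyocyte-gated nuclei (median 5454 UMIs before thinning, against 4835 in members) the shares were 0.253% for Kcnj8 and 0.626% for Pdgfrb. Without thinning, Kcnj8 was found in 81.9%, 27.5% and 0.879% of these 3 groups and Pdgfrb in 93.1%, 87.0% and 4.06%. Abcc9 differed: cardiomyocyte-gated nuclei had it in 23.9% after thinning, above the 9.04% of smooth muscle and the 5.89% of fibroblast-gated nuclei. The part of cardiomyocyte RNA in the Abcc9 UMIs of members elsewhere was not tested. Cardiomyocyte genes outside the rule (12 genes) summed to between 644 and 1408 CPM in members elsewhere, between 370 and 1974 in the 42 and between 509 and 1153 in smooth muscle nuclei. The 11 endothelial genes outside the rule summed to 642, 525 and 222 CPM in the 42 nuclei of pools 1, 2 and 3 and to between 258 and 284 in members elsewhere, and their part in the levels of the 42 was not tested.

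Genes outside the rule are given as a description too, since the clustering had used them. The 42 nuclei held 18.1% of the members' UMIs, but 91.5% of those of Steap4, a metalloreductase, 95.8% of Trpc6, a calcium-permeable channel, 93.0% of S1pr3, a sphingosine-1-phosphate receptor, and all 10 of Higd1b, a mitochondrial protein gene often used to mark pericytes. Steap4 stood at 152, 387 and 346 CPM in them and at 7.31, 0 and 13.1 in members elsewhere. Trpc6 stood at 270, 300 and 148 against 1.83, 5.25 and 0, and S1pr3 at 169, 225 and 296 against 3.65, 5.25 and 0. All 3 genes were higher in the 42 nuclei in every pool. Smooth muscle nuclei had means of 1.97 ± 1.03 CPM for Steap4 and 4.29 ± 2.93 for S1pr3, and Trpc6 stood at 7.97, 11.2 and 16.8 CPM in their 3 pools.

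Across 6284 genes with at least 30 member UMIs, 170 (2.71%) were at least 2-fold higher in the 42 nuclei in each of the 3 pools and 292 (4.65%) at least 2-fold lower. Of 10 listed pericyte markers outside the rule with enough UMIs, 7 were higher, among them Cspg4 and Mcam, cell-surface proteins of mural cells, Art3, Steap4 and the soluble guanylate cyclase genes Gucy1a1 and Gucy1b1, and 1, Rgs7bp, was lower. Their list had a median log2 ratio of 1.94, beside -0.11 over all 6284 genes. Mcam stood at 608, 487 and 395 CPM against 73.1, 57.8 and 26.3. Cspg4 stood at 676, 350 and 247 against 96.8, 57.8 and 105. Both were above the other members in every pool.

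Some receptor and vessel tone genes were higher too. Of 31 listed genes of vasomotor receptors and cyclic GMP signalling, 18 had enough UMIs. Of these, 6 were at least 2-fold higher in the 42 nuclei and 1, Rgs7bp, lower, with a median log2 ratio of 0.08. Among the 6 was the endothelin receptor gene Ednra, at 490, 500 and 420 CPM against 199, 163 and 118. Gucy1a2, a nitric oxide receptor subunit, stood at 1402, 1299 and 1235 against 192, 163 and 184. Prkg1, the kinase that cyclic GMP activates, stood at 9136, 7794 and 9433 against 4026, 2832 and 4522. Of 14 listed PDGF, angiopoietin and S1P genes, 10 had enough UMIs. Of these, 1, S1pr3, was at least 2-fold higher and 6 were lower: the ligand genes Pdgfc, Pdgfd, Angpt1, Angpt2 and Vegfa and the receptor gene Pdgfra. Angpt1, the ligand by which mural cells act on the endothelial receptor Tek, gave 2 of its 151 member UMIs in the 42 nuclei. Pdgfd, a ligand of PDGFRβ, gave 1 of 441, and Pdgfra, the fibroblast PDGF receptor, gave 1 of 137.

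Basement membrane genes moved both ways. Of 29 listed with their integrins, 24 had enough UMIs. Of these, 4 were at least 2-fold higher in the 42 nuclei, the collagen IV chains Col4a1 and Col4a2 and the integrin subunits Itga1 and Itga7, receptors for collagen and laminin. The collagen IV chains Col4a4 and Col4a5 were lower, and the list's median log2 ratio was -0.56. Col4a1 stood at 1993, 2186 and 1012 CPM against 420, 504 and 473, and Itga1 at 1587, 2086 and 1408 against 146, 179 and 302. The fibrous and elastic matrix list had 10 of 24 genes at least 2-fold lower and 0 higher. Elastin, Eln, stood at 743, 1561 and 1358 CPM against 8094, 4714 and 4206. Decorin, Dcn, stood at 169, 287 and 98.8 against 2157, 2591 and 1367, where fibroblast-gated nuclei had a mean of 1875 ± 362. Markers of fibroblasts moved with the members elsewhere: the 9 listed genes summed to between 4127 and 6695 CPM in them, between 642 and 1337 in the 42 and between 1156 and 2281 in smooth muscle nuclei.

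Of 39 listed transcription factors 29 had enough UMIs, and 3 of these were at least 2-fold higher in the 42 nuclei and 0 lower. Nr2f2, a nuclear receptor known from veins and their mural cells, stood at 355, 525 and 469 CPM against 58.5, 126 and 131. Tbx2 and Ebf1 were the other two. Gjc1, the gap junction protein connexin 45, stood at 963, 874 and 469 CPM against 130, 110 and 171. Of 30 listed adhesion and guidance genes 25 had enough UMIs. Of these, 3 were at least 2-fold higher, Gjc1 among them, and 7 lower, among them Cdh11, Cdh13 and Ncam1. Solute transporters known from brain pericytes were present in part. Slc6a13, Slc6a20a, Slc22a8 and Slc30a10 gave no UMI in any member, which allows up to 3.02 CPM. The phosphate transporter Slc20a2 stood at 125, 99.9 and 112 CPM in all members, the glutamate transporter Slc1a3 at 90.7, 148 and 8.58, Slc38a11 at 29.7, 0 and 68.6 and Slc12a7 at 14.8, 11.1 and 8.58.

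**Figure D3:**
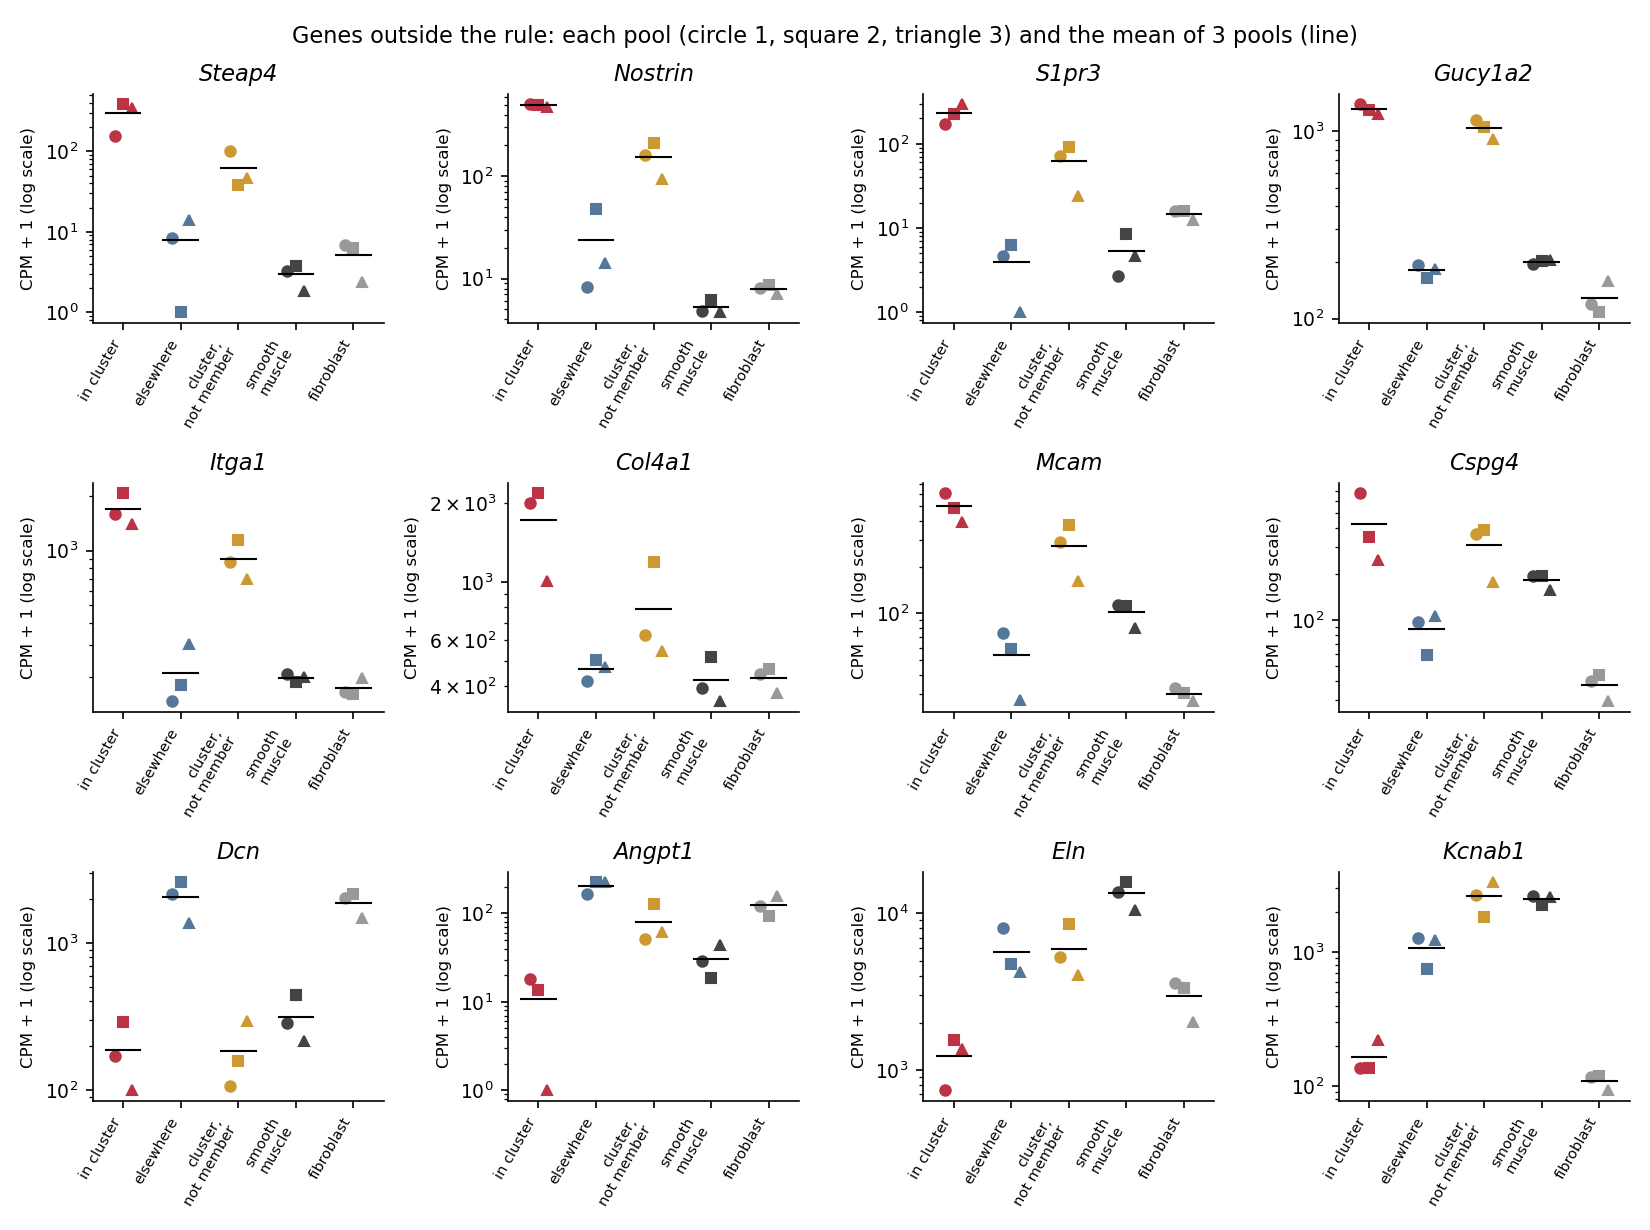
Levels of 12 genes outside the rule (CPM + 1, log scale) in members in the Steap4/Nostrin cluster, members elsewhere, other nuclei of that cluster, smooth muscle nuclei and fibroblast-gated nuclei, with 1 point per pool and a line at the mean of 3 pools. The first 8 genes are higher in the cluster's members than in members elsewhere in every pool and the last 4 are lower.

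The Steap4/Nostrin cluster also held 88 nuclei outside the rule, and 73 of them met the smooth muscle rule. They had more than 1 Myh11 UMI in 65 cases and fewer than 2 UMIs of Abcc9, Kcnj8 and Vtn in 66. Over the whole cluster of 130 nuclei, 5 of 6 pericyte markers and 6 of 8 smooth muscle markers were detected in at least 10% of nuclei and at least 2-fold above all other nuclei, against 0 of 6 fibroblast, 0 of 8 endothelial and 0 of 6 cardiomyocyte markers. For this reason the cluster is named by its genes and not by a cell type. Of 4523 genes with at least 30 UMIs, the 42 members were at least 2-fold above the other 88 in each pool for 54 (1.19%) and below for 161 (3.56%).

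The 42 members had lower contractile genes than the rest of their own cluster. Of 19 listed contractile genes outside the rules 8 were at least 2-fold lower than in the 88 nuclei and 0 higher. Acta2, smooth muscle actin, stood at 169, 487 and 272 CPM in the members against 1226, 2195 and 1075, and Kcnab1, a potassium channel β subunit, at 135, 137 and 222 against 2670, 1829 and 3333. The member rule capped Myh11, so a lower contractile list is tied to the selection. Of 11 pericyte markers outside the rule with enough UMIs, 0 were at least 2-fold higher in the 42 and 1, Rgs7bp, lower. S1pr3 was 1 of the 54 higher genes, at 69.7, 89.6 and 23.0 CPM in the 88 nuclei. Trpc6 was near level, with means of 239 ± 80.4 CPM in the members and 234 ± 25.8 in the 88.

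All members were then tested against smooth muscle nuclei, the class that met at least 3 of Myh11, Itga8, Lmod1, Synpo2 and Mylk under the members' own limits on endothelial and cardiomyocyte genes. Of 14686 genes, 1393 (9.49%) differed, 638 (4.34%) higher and 755 (5.14%) lower in members, at an adjusted p under 0.05 (edgeR quasi-likelihood test on UMIs summed per pool, with pool as a block). Fewer genes passed without pool 1, at 397 higher and 453 lower, and without pool 2, at 434 and 432. With depth matched between the classes 352 were higher and 310 lower, and DESeq2 called 740 higher and 660 lower, so which direction held more genes changed with the setting. The pools are separate pooled samples. With pool as a block, p-values measure how class differences varied between pools, with a spread shared by all classes in the fit. They do not measure the spread of members alone. In 66 members the smooth muscle rule was met as well.

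Several genes high in the 42 nuclei rose. With log2 fold changes given ± SE, Steap4 rose by 4.81 ± 0.58 (adjusted p = 8.53e-06), from 2.28, 2.80 and 0.819 CPM in smooth muscle to 21.4, 115 and 129 CPM in members of pools 1, 2 and 3. Without pool 1 its log2 difference was 5.85. Nostrin, an adaptor that binds nitric oxide synthase, rose by 4.63 ± 0.39 (adjusted p = 1.75e-07), and the secreted lectin gene Colec11 by 4.89 ± 0.45 (adjusted p = 3.41e-07). Pla1a rose by 4.17 ± 0.50 (adjusted p = 7.37e-06, and 4.91 without pool 1), Mdga2 by 3.99 ± 0.45, S1pr3 by 3.62 ± 0.48 and Higd1b by 4.35 ± 0.82 (adjusted p = 3.35e-06, 2.31e-05 and 0.00102, the last at 0.0647 with depth matched between the classes). Every one of these was higher in 3 of 3 pools. With the 143 members elsewhere alone, the differences on the log2 scale were 1.37 for Steap4, 2.02 for Nostrin, 1.27 for Colec11, 0.09 for S1pr3 and -0.53 for Mdga2, all below the values over all members. Not every leading gene of the cluster rose: Olfr78, an olfactory receptor gene with 2 member UMIs, fell by 3.08 ± 0.77 (adjusted p = 0.0120) and Mamdc2 by 1.22 ± 0.32 (adjusted p = 0.0184), both named after their values were seen. Olfr78 did not pass without pool 1 (-2.55, adjusted p = 0.333) or pool 2 (-2.77, adjusted p = 0.0575), and Mamdc2 did not pass without pool 1 (-1.82), pool 2 (-0.92) or pool 3 (-1.20, adjusted p = 0.0531, 0.108 and 0.0511). Both stood higher in the cluster's other 88 nuclei, at means of 247 ± 99.5 and 557 ± 224 CPM.

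A second set of rises came with the other members. Dcn rose by 2.24 ± 0.17 (adjusted p = 4.49e-08), with 1963, 1909 and 926 CPM in members and 286, 441 and 214 in smooth muscle. Lum, a collagen-binding proteoglycan, rose by 2.23 ± 0.19 (adjusted p = 1.34e-07), Angpt1 by 2.29 ± 0.29 (adjusted p = 1.62e-05) and Pdgfra by 1.13 ± 0.20 (adjusted p = 0.000530, and 0.119 with a difference of 0.78 without pool 1). With the 42 nuclei alone, the log2 difference from smooth muscle was -1.03 for Dcn and -1.44 for Lum. Wif1, a Wnt inhibitor, rose by 3.90 ± 0.43 (adjusted p = 2.62e-06) and gave 90 UMIs in members elsewhere and 0 among the 42. Of 9 listed fibroblast genes, 7 were higher in members and 0 lower. For Mdga2, Dcn and Lum the difference over all members thus had the opposite sign in 1 of the 2 kinds of members.

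Pericyte markers outside the rule were divided: 5 of 17 tested were higher than in smooth muscle (Anpep, Higd1b, Art3 and Steap4 among them), 2 lower (Gucy1a1 and Rgs7bp) and 10 did not pass, with a list median of 0.29 beside -0.05 over all genes. Mcam differed by 0.36 ± 0.16 (adjusted p = 0.207) and Cspg4 by -0.45 ± 0.15 (adjusted p = 0.0646). With the 42 nuclei alone these were 1.92 and 0.84, and with the others alone -0.85 and -1.22. Heyl, a Notch target, differed by -0.43 ± 0.16 (adjusted p = 0.120). Gucy1a1 fell by 0.63 ± 0.14 (adjusted p = 0.00463, and 0.0732 without pool 1), while Gucy1a2 rose by 0.93 ± 0.18 (adjusted p = 0.00156). Both changed sign in 1 of the 2 kinds of members, Gucy1a1 to 0.13 in the 42 alone and Gucy1a2 to -0.25 in the 143 alone. The phosphodiesterase gene Pde8b rose by 3.05 ± 0.51 (adjusted p = 0.000303, and 2.37 without pool 3).

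Contractile genes fell, and the limit on Myh11 had selected members for low smooth muscle RNA: 17 of 19 listed genes were lower and 0 higher, with a median of -1.14. Acta2 fell by 1.61 ± 0.14, Tagln by 1.21 ± 0.16, the myosin light chain Myl9 by 1.27 ± 0.16 and dystrophin, Dmd, by 2.00 ± 0.15 (adjusted p = 2.53e-07, 2.71e-05, 1.80e-05 and 2.52e-08). Acta2 was at 358, 403 and 283 CPM in members and 861, 1320 and 680 in smooth muscle. Eln fell by 1.71 ± 0.17, from 13763, 15847 and 10557 CPM in smooth muscle to 7376, 3780 and 3217 in members (adjusted p = 7.48e-07). Kcnab1 fell by 1.71 ± 0.20 (adjusted p = 4.89e-06), Pdgfd by 1.34 ± 0.21 (adjusted p = 0.000192, and by 1.94 without pool 1) and the Notch ligand Jag1 by 1.06 ± 0.16 (adjusted p = 0.000126). These were lower in 3 of 3 pools. In both kinds of members taken alone all but Pdgfd, with 1 UMI among the 42, had a value and were lower than smooth muscle.

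Of 29 listed basement membrane genes and integrins 6 were higher and 7 lower than in smooth muscle. Col4a1 rose by 0.65 ± 0.13 (adjusted p = 0.00148) and Itga1 by 1.26 ± 0.20 (adjusted p = 0.000173), with -0.01 and -0.25 in the members elsewhere alone. Of 36 transcription factors tested 15 were higher and 4 lower, and against fibroblast-gated nuclei 7 were higher and 6 lower. Ebf2 rose by 2.14 ± 0.28 (adjusted p = 1.79e-05) and Nr2f2 by 1.77 ± 0.24 (adjusted p = 2.92e-05). For these 2 genes both kinds of members stood above smooth muscle, Ebf2 by 2.83 in the 42 and 1.77 in the others, Nr2f2 by 3.01 and 0.90. Against fibroblast-gated nuclei Ebf2 was at -0.52 ± 0.25 (adjusted p = 0.306).

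**Figure D4:**
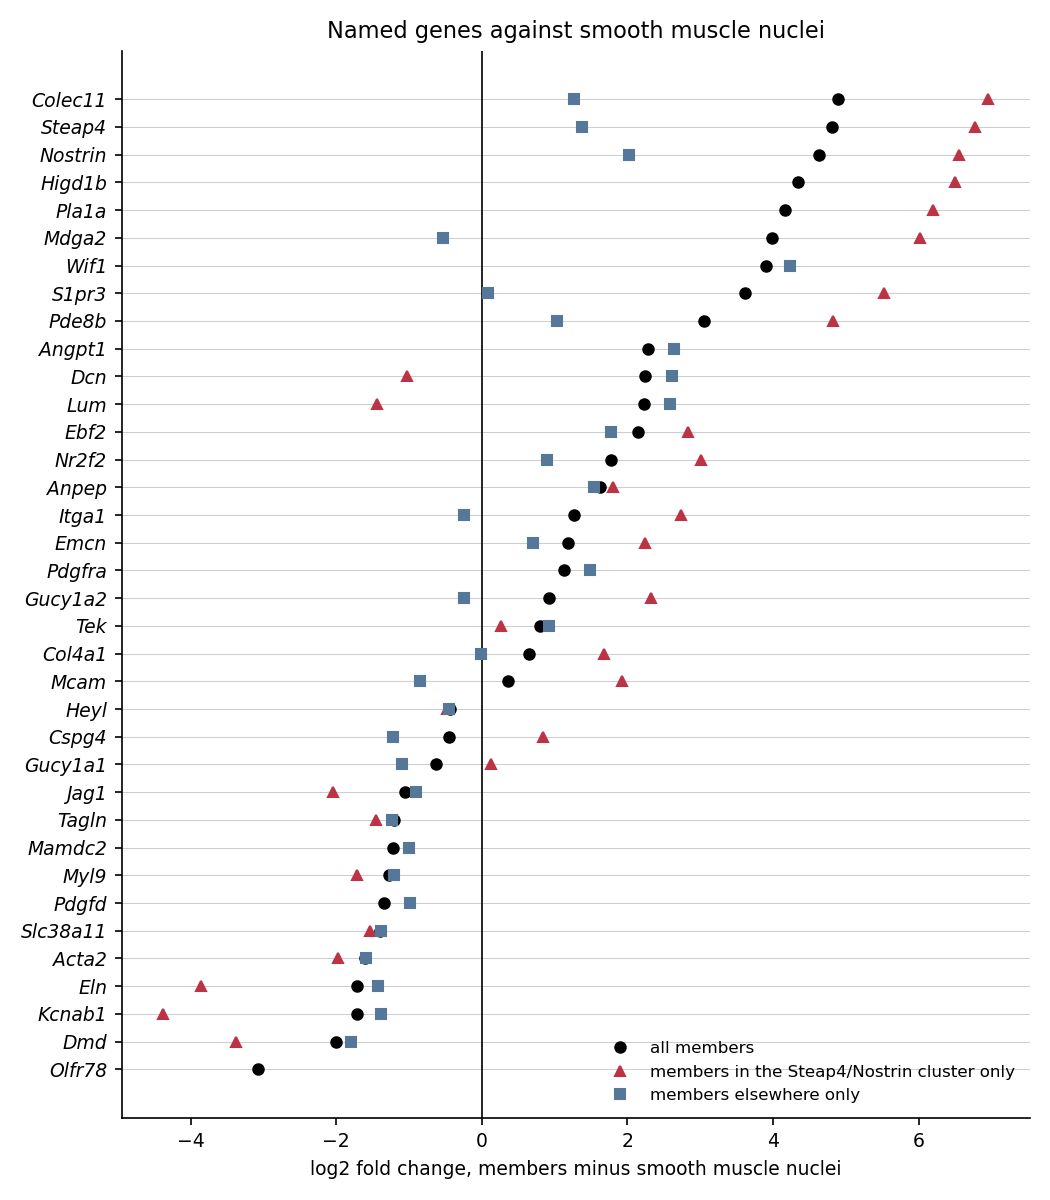
Log2 fold change of named genes against smooth muscle nuclei for all members (circles), for the 42 members in the Steap4/Nostrin cluster (triangles) and for the 143 elsewhere (squares), with no point where a group had fewer than 3 UMIs. Mdga2 is at 6.02 for the 42 and -0.53 for the 143, Dcn is at -1.03 and 2.61, and Acta2, Tagln, Myl9 and Dmd are below 0 in all 3 fits.

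Against fibroblast-gated nuclei, mural and contractile genes were higher in members. That class had RNA of at least 3 of Pdgfra, Dcn, Col1a1, Abca8a, Dpt and Lum and held no nucleus that met the smooth muscle rule. Of 14680 genes 838 (5.71%) differed, 436 (2.97%) higher and 402 (2.74%) lower. Without pool 1 these were 264 and 213, with depth matched 331 and 179, and without the pool as a block 334 and 212. Of 17 pericyte markers outside the rule 11 were higher and 0 lower, with a median of 1.34 beside -0.06 over all genes. Mcam rose by 2.28 ± 0.19 (adjusted p = 1.02e-07), from 31.8, 29.4 and 25.8 CPM to 125, 185 and 154. Cspg4 rose by 1.96 ± 0.17 (adjusted p = 3.12e-07), from 38.9, 42.7 and 28.5 to 153, 144 and 154. Both were higher in 3 of 3 pools, and in the 143 members elsewhere alone they stood above fibroblast-gated nuclei by 1.05 and 1.17 on the log2 scale.

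Contractile and vessel tone genes rose together here. The fibroblast-gated class held no nucleus that met the smooth muscle rule, while 66 members met it, so higher contractile genes in members are tied to that selection. Without those members 273 genes were higher and 302 lower in this comparison. Of 19 contractile genes 13 were higher and 0 lower, and of 27 vasomotor genes 12 were higher and 1 lower. Mrvi1, a cyclic GMP kinase substrate that acts on calcium release, rose by 2.59 ± 0.17 (adjusted p = 4.84e-09), Gucy1a1 by 1.58 ± 0.15 (adjusted p = 6.35e-07), Gucy1b1 by 1.29 ± 0.13 (adjusted p = 1.58e-06) and Prkg1 by 1.11 ± 0.10 (adjusted p = 6.92e-07). Kcnab1 rose by 2.90 ± 0.22 (adjusted p = 3.26e-08) and Acta2 by 1.02 ± 0.15 (adjusted p = 0.000139), but without the 66 members that also met the smooth muscle rule Acta2 was at -0.03. Mylk4, a myosin kinase gene, rose by 4.88 ± 0.40 (adjusted p = 1.04e-07) and was not seen among the 42. Without those 66 members it was at 2.14 with an adjusted p of 0.217, and without pool 1 at 3.41.

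Several leading genes of the Steap4/Nostrin cluster rose here too. Colec11 rose by 4.80 ± 0.46 (adjusted p = 7.38e-07, and 5.43 without pool 1), Mdga2 by 4.44 ± 0.48 (adjusted p = 2.64e-06, and 3.76 without pool 3) and Nostrin by 3.99 ± 0.38 (adjusted p = 7.92e-07, and 4.59 without pool 1). Steap4 rose by 3.81 ± 0.55 (adjusted p = 0.000103, and 4.96 without pool 1). With the 143 members elsewhere alone, the log2 differences were 1.14 for Colec11, -0.05 for Mdga2, 1.34 for Nostrin and 0.25 for Steap4. Higd1b rose by 4.29 ± 0.84 (adjusted p = 0.00228), on 10 member UMIs, and did not pass without pool 1 (adjusted p = 0.0565) or with depth matched (adjusted p = 0.0659). Among Notch genes 4 of 13 were higher and 0 lower, with Heyl up by 1.16 ± 0.18 (adjusted p = 0.000320) and Jag1 by 1.32 ± 0.18 (adjusted p = 5.35e-05). The integrin genes Itga7 and Itga1 rose by 2.67 ± 0.30 and 1.59 ± 0.20 (adjusted p = 5.75e-06 and 2.69e-05), with 3.27 for Itga7 without pool 1, and in the 143 alone they were at 1.75 and 0.05. Nr2f2 rose by 1.46 ± 0.24 (adjusted p = 0.000389, and 2.06 without pool 1).

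The fibroblast-gated nuclei had been chosen for RNA of Col1a1, Dcn, Lum and other matrix and fibroblast genes, so lower matrix genes in members are tied to that selection. Fibrillar collagens fell: of 21 fibrous and elastic matrix genes tested 8 were lower and 2, Eln and Acan, higher. Col3a1 fell by 1.08 ± 0.15 (adjusted p = 6.34e-05) and Col1a2 by 0.93 ± 0.14 (adjusted p = 0.000139). Col1a2 was at 2062, 1487 and 1055 CPM in members and 3511, 3257 and 1916 in fibroblast-gated nuclei. Without the pool as a block neither collagen passed (adjusted p = 0.0553 for Col3a1 and 0.0855 for Col1a2). Eln rose by 0.63 ± 0.16 (adjusted p = 0.0230) and did not pass without pool 1 (0.35, adjusted p = 0.258), without pool 3 (0.64, adjusted p = 0.0720) or without the block (adjusted p = 0.353). Without the 66 members that met the smooth muscle rule it was at -0.33, and with the 42 nuclei alone at -1.57. Pi16, a marker of adventitial fibroblasts, was at -3.58 ± 0.68 (adjusted p = 0.00186), with -2.84 without pool 1 and -4.66 without pool 2. All 6 listed mesothelial genes were lower, with Msln, mesothelin, down at -2.92 ± 0.52 (adjusted p = 0.00104). Mesothelial genes summed to between 34.3 and 231 CPM in members and between 38.1 and 182 in smooth muscle nuclei. In fibroblast-gated nuclei they summed to between 350 and 1118. Against smooth muscle 0 of the 6 passed. The fibroblast gate had taken in 126 of the 418 nuclei of a cluster led by Msln and C3, and 333 of the 976 of the cluster led by Rmst and Pcdh15.

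Against the rest, 2208 of 17079 genes (12.9%) differed, 960 (5.62%) higher and 1248 (7.31%) lower. With depth matched 421 were higher and 543 lower. Of 18 pericyte markers outside the rule 11 were higher and 0 lower. Gucy1b1 rose by 2.20 ± 0.13 (adjusted p = 1.14e-10), Heyl by 1.83 ± 0.20 (adjusted p = 3.31e-07) and Cspg4 by 1.81 ± 0.17 (adjusted p = 5.39e-08). In this comparison 3 mitochondrial protein genes often listed as pericyte markers passed together: Higd1b at 4.45 ± 0.71, Ndufa4l2 at 2.26 ± 0.42 and Cox4i2 at 1.84 ± 0.46 (adjusted p = 7.95e-05, 0.000462 and 0.00742, the last at 0.296 without pool 1). They rested on 10, 22 and 16 member UMIs. Against smooth muscle nuclei Ndufa4l2 was at 1.52 ± 0.49 (adjusted p = 0.0558) and Cox4i2 at 0.69 ± 0.42 (adjusted p = 0.405), so neither passed. Against fibroblast-gated nuclei only Higd1b of the 3 passed. Of 7 brain pericyte transporters tested 1 was higher, Slc38a11 by 3.21 ± 0.57 (adjusted p = 0.000307) in 2 of 3 pools, and 1 lower, Slc12a7 at -1.95 ± 0.32 (adjusted p = 0.000114). Slc38a11 rose against fibroblast-gated nuclei too, by 4.49 ± 0.62 (adjusted p = 6.69e-05) in 2 of 3 pools. Against smooth muscle nuclei, which had 67.6, 51.8 and 72.1 CPM of it, Slc38a11 fell by 1.40 ± 0.34 (adjusted p = 0.00902) in 3 of 3 pools, and did not pass without pool 1 (-1.60, adjusted p = 0.167), without pool 2 (-0.99, adjusted p = 0.0561), with depth matched (-0.88, adjusted p = 0.417) or without the block (adjusted p = 0.0501). The 11 endothelial and 12 cardiomyocyte genes listed were all lower, with Emcn at -3.49 ± 0.24 (adjusted p = 6.46e-10, and -4.55 without pool 1), and the rule had capped both classes. Against smooth muscle and fibroblast-gated nuclei, under the same caps, fewer of these genes differed, where 9.49% and 5.71% of all genes tested did. Of the 11 endothelial genes 2 were higher than in smooth muscle and 1, Erg, lower. Emcn rose by 1.19 ± 0.33 (adjusted p = 0.0248), higher in 2 of 3 pools, but stood at 0.06 without pool 1 (adjusted p = 0.988), at 1.71 with depth matched (adjusted p = 0.105) and at -2.17 against the smooth muscle rule without limits. Tek rose by 0.80 ± 0.21 (adjusted p = 0.0154) and was at 0.67 without pool 2 (adjusted p = 0.170), at 0.47 with depth matched (adjusted p = 0.568) and at -1.20 without the limits. Against fibroblast-gated nuclei Flt1 rose by 1.72 ± 0.33 (adjusted p = 0.00202) and Emcn by 1.78 ± 0.36 (adjusted p = 0.00288, and 0.85 with an adjusted p of 0.644 without pool 1), while Tek fell by 1.36 ± 0.18 (adjusted p = 5.30e-05). Of the 12 cardiomyocyte genes 0 passed against smooth muscle and 1, Myl7, was lower than in fibroblast-gated nuclei. The endothelial genes, Slc38a11, Ndufa4l2 and Cox4i2 were named for these 2 comparisons after their values were seen.

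Cell cycle RNA was present in the members. A nucleus was called cycling with at least 2 UMIs over 12 cell cycle genes after thinning to 1000 UMIs. The share was 13.5%, 8.33% and 9.09% of members in pools 1, 2 and 3, against 161 of 1788, 43 of 449 and 46 of 675 smooth muscle nuclei, a mean of 10.3 ± 2.77% against 8.47 ± 1.46%, and the ranges overlapped. Among the 42 nuclei it was 5 of 14, 1 of 16 and 3 of 12, and among members elsewhere 9 of 90, 3 of 32 and 0 of 21, which allows up to 14.3% in the last. No test of these shares was made. In the fit across genes, 9 of the 12 were higher than in the rest and 0 lower, with Top2a, a DNA topoisomerase of dividing cells, up by 0.99 ± 0.16 (adjusted p = 0.000114, and 0.0689 when members needed 3 UMIs of Abcc9, Kcnj8 and Vtn). Against smooth muscle 0 were higher and 1 lower.

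The allele of the strain left little trace in the members. EGFP gave 2 UMIs in 993607, both in members elsewhere, or 2.01 CPM. Cardiomyocyte-gated nuclei had 3.03 CPM, smooth muscle nuclei 3.96, fibroblast-gated nuclei 9.45 and endothelial-gated nuclei 12.8. Scx gave 0 UMIs, which allows up to 3.02 CPM. No barcode was shared between pools among the members, where 99, 59 and 44 barcodes of all nuclei were shared by the pairs of pools.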

How the data were processed

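The authors deposited UMI counts per gene and nucleus as 10x matrices, whose headers name Cell Ranger 7.1.0. The submitters' processing notes name Cell Ranger 7.0.1 and 7.1.0 and GRCm39. Of 21140 deposited nuclei 14073 were kept. Counts were summed per pool and class and tested with edgeR 4.0.16 (R 4.3.3; TMM, filterByExpr, quasi-likelihood, pool as a block, Benjamini-Hochberg adjustment at 0.05). Pool is a block because each class of a pool comes from the same library. Clusters used scanpy 1.11.5 and leidenalg 0.10.2 on 2000 variable genes without the rule, mitochondrial and cell cycle genes, at resolution 1. Scrublet's automatic threshold marked 0, 0 and 1 nuclei, so doublets were kept, and the highest scores, at 0.8% per 1000 nuclei, were left out as an alternative. Members and gene lists were chosen with earlier results of these data known. Beyond the lists, named genes were among the 15 largest rises and 10 largest falls of a comparison with adjusted p under 0.05, 3 of 3 pools in 1 direction and at least 20 CPM. On simulated smooth muscle comparisons over 14712 genes, 26% of 100 genes changed 2-fold and 89% of 100 changed 4-fold were recovered. The simulation gave every gene the same spread and made members otherwise equal to smooth muscle. It changed only genes with at least 20 CPM in smooth muscle, so these rates do not cover genes below that. Intervals and limits from a count of 0 cover counting error only. DESeq2 1.42.0 was an alternative. Some genes that entered these fits and counts are not reported here.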

Additional observations from a re-analysis of the deposited data

How the results depend on the processing

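With the 143 members outside the Steap4/Nostrin cluster alone, an alternative chosen after seeing the data, log2 differences from smooth muscle changed sign for Mdga2 (-0.53), Gucy1a2 (-0.25), Mcam (-0.85), Col4a1 (-0.01) and Itga1 (-0.25), and from fibroblast-gated nuclei for Mdga2 (-0.05). With the 42 alone they changed sign for Gucy1a1 (0.13), Cspg4 (0.84), Dcn (-1.03) and Lum (-1.44) against smooth muscle and Eln (-1.57) against fibroblast-gated nuclei, where 1340 genes passed in place of 838. Genes with fewer than 3 member UMIs in such a split have no value there. With the smooth muscle rule without limits, Cspg4 was at 0.04, Heyl at 0.03, Emcn at -2.17 and Tek at -1.20. Without members that met the smooth muscle rule, Acta2 was at -0.03 and Eln at -0.33 against fibroblast-gated nuclei. With depth matched between classes 662, 510 and 964 genes passed against smooth muscle, fibroblast-gated nuclei and the rest. Without the pool as a replicate block 974, 546 and 1548 passed. Leaving out 1 pool gave 850 to 1165, 477 to 735 and 1667 to 1954 genes, a member share of 1.18 to 1.47%, and cycling shares of 8.71 to 11.3% in members and 7.91 to 9.29% in smooth muscle. The member share was 0.805% with at least 3 UMIs of Abcc9, Kcnj8 and Vtn, 0.874% without members that met the smooth muscle rule and 0.347% after thinning. Cycling shares were 20.1% in members and 21.3% in smooth muscle without thinning, and 22.8% and 19.4% with 1 UMI as the limit. Over the settings other than the cluster splits, 1014 of 1067 values of 77 gene tests kept direction and call, 43 lost the call, 4 gained it and 6 changed sign. With the 42 alone 55 of 68 values kept both, 7 lost the call, 1 gained it and 5 changed sign. With the 143 alone 45 of 71 kept both, 19 lost the call, 1 gained it and 6 changed sign. The causes were not tested. With 3 pools and 33 to 104 members in each, genes of few UMIs, such as Higd1b with 10, are the least precise.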
